A study of Arabidopsis thaliana with 12 samples.

Results

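Whole Arabidopsis thaliana seedlings that carried a mutated form of the immune receptor CERK1, named 3A, were compared with seedlings that carried the wild-type form. The comparison covers 4 of the 12 RNA sequencing libraries of the series, 2 of the line CERK1_3A and 2 of the line CERK1_WT, which were chosen by the genotype in the labels. All plants were cerk1 mutants, were 10 days old after germination, had received no treatment, and carried a FLAG-tagged CERK1 transgene driven by the CERK1 promoter. CERK1_WT held the transgene with no mutation named (cerk1/pCERK1::CERK1-FLAG) and CERK1_3A the transgene CERK1_3A-FLAG in its place. Lines with CERK1_3D-FLAG and CERK1_3E-FLAG, also 2 untreated libraries each, share the table and helped to estimate the spread between replicates. The labels give neither the substituted residues nor the number of transformants behind a construct, so a construct and its line cannot be told apart. Whether the 2 libraries of each line were grown as separate cultures is not stated either, and the p-values rest on a spread between libraries that may be technical.

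CERK1 is a receptor kinase of the plasma membrane with LysM domains outside the cell, and it is required in Arabidopsis for the response to chitin of fungal cell walls. It acts with the LysM receptor kinases LYK4 and LYK5, which bind chitin, and with the LysM proteins LYM1 and LYM3 in the response to bacterial peptidoglycan. Phosphorylation of its kinase part is coupled to signalling, and the title of the series concerns phosphorylation of CERK1 after flg22, a flagellin peptide perceived by the separate receptor FLS2. The comparison therefore asked whether the 3A form changed the transcriptome of seedlings that had met no elicitor.

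The 4 compared libraries held 36399561 to 41288819 counts, and the 4 of CERK1_3D and CERK1_3E held 36013439 to 37793059. Between the 2 libraries of CERK1_WT 175 of 15206 genes with a mean level of at least 5 CPM (counts scaled to the library size) differed by 2-fold or more, and between the 2 of CERK1_3A 147 did. The number was 173 within CERK1_3E and 295 within CERK1_3D. Transcripts of 20 nuclear photosynthesis genes summed to 73730 to 93510 CPM in the compared libraries, and 18 root markers summed to 2537 to 2923 CPM. Seedlings have both shoots and roots, and both marker groups were present. Markers of seeds summed to 0.423 to 2.98 CPM over 10 genes and markers of flowers to 3.14 to 5.67 CPM over 6 genes, and 1 seed marker was at 0 in all libraries.

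The transcriptomes of the lines were close. Of 21274 genes tested with edgeR's quasi-likelihood test over all 8 libraries, 0 were called higher and 2 lower in CERK1_3A at an adjusted p under 0.05, which is 0.0094% of the genes. The genes called were ARP9, which encodes an actin-related protein, and AT2G01021, an uncharacterized short open reading frame that by gene order lies near ribosomal RNA genes. The older setting of the same test called 1 gene, ARP9, and DESeq2 called 14. Where no other tool or setting is named, called refers to edgeR's test over all 8 libraries. At an unadjusted p under 0.05, 651 genes passed (3.06%), 327 of them higher (1.54%) and 324 lower (1.52%). A share of 0.05 would pass with no difference in any gene, so this number is no excess. The lines did not overlap for 16.3% of the genes with CERK1_3A higher and for 15.9% with CERK1_3A lower. With 2 libraries against 2, shares near these arise with no difference between lines, so a lack of overlap alone marks no gene as changed. With a difference of at least 2-fold the shares were 0.907% and 0.992%.

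The data also bound how large a difference could have been missed. Among the 15206 genes with a mean of at least 5 CPM, the difference between the means of the lines was under 2-fold for 99.56%. The 95% interval of the difference lay wholly within 2-fold for 14565 of them (95.8%). That interval reached to either side of the estimate by a median of 0.298 on the log2 scale. The remaining genes, and those below 5 CPM, could hold a 2-fold difference that was not detectable with 2 libraries a line.

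**Figure D1:**
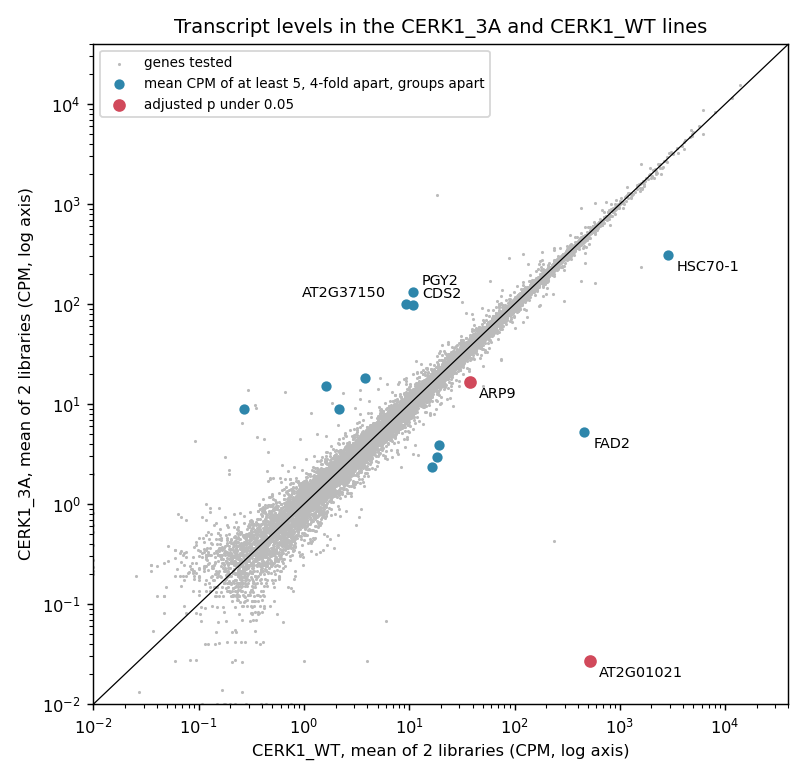
Mean level of each tested gene in CERK1_WT (horizontal) and CERK1_3A (vertical), in CPM on log axes, with equal levels on the diagonal. Blue points have a mean of at least 5 CPM, differ 4-fold or more and have groups that do not overlap; red points are the 2 genes called, of which AT2G01021 lies at the lower edge and ARP9 close to the diagonal.

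CERK1 transcripts, endogenous and transgenic together, were measured at 61.1 and 52.5 CPM in CERK1_WT and at 80.2 and 73.3 CPM in CERK1_3A. They stood at 115 and 121 CPM in CERK1_3D and at 114 and 129 CPM in CERK1_3E. The libraries of CERK1_3A thus lay above both of CERK1_WT and below all 4 of the other lines, with no overlap. The difference from CERK1_WT was 0.43 on the log2 scale (SE 0.10, 95% interval 0.19 to 0.67), higher in 2 of 2 libraries. By edgeR's test it did not pass the threshold (adjusted p = 1). Against the mean of CERK1_3D and CERK1_3E the difference was -0.64 (SE 0.09, adjusted p = 0.297), not called by edgeR's test but among the 41 calls of DESeq2. The counts cannot show how much of this RNA came from the transgene, and the protein was not measured in these files. The deposited length of CERK1, 5982 bases, exceeds its annotated span of 3315 bases. Its counts may thus include reads from outside the annotated gene, which was not tested.

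The genes on either side of CERK1 in gene order were read as well. TWD1, the next gene after CERK1 and known for an immunophilin that interacts with auxin-transporting ABC proteins, was at 24.2 and 20.2 CPM in CERK1_WT and at 18.9 and 17.9 CPM in CERK1_3A. In CERK1_3D it was at 182 and 132 CPM and in CERK1_3E at 264 and 204 CPM. CERK1_3A thus lay with CERK1_WT and not with the other lines: the difference of CERK1_3A from CERK1_WT was -0.28 (SE 0.18, adjusted p = 1) and from the mean of CERK1_3D and CERK1_3E -3.38 (SE 0.18, adjusted p = 0.00088). The other neighbours, AT3G21610, AT3G21620 and AT3G21650, differed between CERK1_3A and CERK1_WT by -0.07, -0.22 and -0.09, all with an adjusted p of 1. The deposited length of TWD1, 4435 bases, likewise exceeds its annotated span of 2627 bases.

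The other LysM receptors did not differ detectably. Of 8 genes of the family, 0 were called, where 0.0094% of all genes tested were. The median difference was -0.06, against 0.00 over all genes tested. LYK5, the main chitin-binding partner, was at 6.78 and 5.60 CPM in CERK1_WT and at 6.13 and 5.14 CPM in CERK1_3A (log2 -0.14, SE 0.26). LYK4 was at 6.69 and 5.46 CPM against 5.60 and 5.14 CPM (log2 -0.18, SE 0.19). LYM1, LYM2 and LYM3 differed by -0.03, 0.09 and 0.14, and for 7 of the 8 genes the 95% interval lay within 2-fold.

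ARP9 fell in CERK1_3A. Its level was 36.8 and 39.0 CPM in CERK1_WT and 17.3 and 15.9 CPM in CERK1_3A, so the lines did not overlap and CERK1_3A retained 43.7% of the CERK1_WT level. The log2 difference was -1.19 (SE 0.09, 95% interval -1.41 to -0.98, adjusted p = 0.0153), lower in 2 of 2 libraries. CERK1_3D at 35.8 and 39.0 CPM and CERK1_3E at 34.0 and 34.8 CPM lay near CERK1_WT, and against their mean CERK1_3A differed by -1.11 (SE 0.08, adjusted p = 0.00579). The call was lost when CERK1_WT replicate 2 was left out (adjusted p = 0.0624). It was lost too without the first (0.0892) or the second (0.0541) CERK1_3A library, while the log2 difference stayed between -1.26 and -1.13.

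Of 8 actin-related protein genes, 1 was called, ARP9, where 0.0094% of all genes tested were called. The gene groups were chosen with earlier results of these data known, so this count adds no support to the ARP9 call. ARP4, ARP5 and ARP6, subunits of chromatin remodelling complexes in the nucleus, differed by -0.01, 0.07 and -0.02. ARP2 and ARP3, which nucleate branched actin filaments, differed by 0.16 and 0.13. Of 12 tested actins and actin-binding proteins 0 were called, with a median of 0.00. The 4 genes that flank ARP9 in gene order were at 0 to 0.118 CPM in the compared libraries and gave no comparison. The deposited length of ARP9, 15889 bases, exceeds the 4130 bases the gene spans in the TAIR10.1 annotation, so its counts may include reads from outside the annotated gene; such a mismatch was common, at 37.7% of the tested genes with an annotated span.

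AT2G01021 was all but absent from CERK1_3A. It had 16231 and 24518 counts in CERK1_WT (384 and 663 CPM) and 1 and 1 count in CERK1_3A. The libraries of CERK1_3D held 3347 and 646 CPM and those of CERK1_3E 243 and 694 CPM, so CERK1_3A lay below every other library. The ratio of CERK1_WT over CERK1_3A was 19000, with a 95% counting interval of 5270 to 157000, and the adjusted p was 0.0153. The call was lost with the older setting of the test (adjusted p = 0.126) and without CERK1_3A replicate 1 (0.48) or replicate 2 (0.299).

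The surroundings of AT2G01021 bear on that value. Its annotated span is 102 bases and its deposited length 25725 bases. The next gene, AT2G01023, was at 0.0473 and 861 CPM in the libraries of CERK1_WT and at 830 and 1004 CPM in those of CERK1_3A, and at 7.36 and 0.0546 CPM in those of CERK1_3E. It thus switched between absent and abundant inside a line. AT2G01008 on the other side was at 666 and 497 CPM in CERK1_WT and at 1066 and 1000 CPM in CERK1_3A (log2 0.83, SE 0.43, adjusted p = 1). Whether reads of this region were assigned to different loci in different libraries was not tested.

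Among genes that differed 4-fold or more with no overlap, the most highly expressed was HSC70-1, which encodes a cytosolic heat shock cognate protein that folds other proteins and that acts in Arabidopsis with SGT1 in immunity. It was at 3025 and 2671 CPM in CERK1_WT and at 311 and 313 CPM in CERK1_3A. CERK1_3D held 3010 and 2878 CPM, and CERK1_3E 2057 and 823 CPM. CERK1_3A therefore lay below all other libraries, but the 2 libraries of CERK1_3E were themselves 2.50-fold apart. The difference from CERK1_WT was -3.19 on the log2 scale (SE 0.38, 95% interval -4.06 to -2.32), or 10.9% of the CERK1_WT level. That both CERK1_3A libraries were lower follows from how the gene was picked. The difference was not called (adjusted p = 0.167). It was called when the spread came from the 4 compared libraries alone (adjusted p = 0.000509), without CERK1_3E replicate 1 (0.00297) or replicate 2 (0.00319), and by DESeq2 (2.61e-09).

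Levels of the other cytosolic HSP70 genes overlapped between the lines. HSP70-2, the adjacent gene, was at 79.3 and 42.6 CPM in CERK1_WT and at 72.1 and 64.1 CPM in CERK1_3A (log2 0.16, SE 0.25). AT3G09440, another member of the cytosolic group, was at 627 and 466 CPM against 552 and 521 CPM (log2 -0.03, SE 0.16), and the heat-inducible HSP70 at 532 and 371 CPM against 376 and 357 CPM (log2 -0.30, SE 0.19). Summed, the 4 cytosolic genes other than HSC70-1 held 1246 and 886 CPM in CERK1_WT and 1007 and 949 CPM in CERK1_3A, which overlap. With HSC70-1 the 5 genes held 4271 and 3557 CPM against 1317 and 1262 CPM. The lower level of HSC70-1 was thus not matched by a higher level of its annotated relatives. The family is similar in sequence, and how shared reads were counted is not given in the sources used here. The deposited length of HSC70-1, 8346 bases, exceeds its annotated span of 2879 bases, so its counts may include reads from outside it.

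Chaperones of other compartments and partners of HSP70 were also read. Of 19 HSP70 and HSP90 genes, HSC70-1 included, 0 were called by edgeR's test over all libraries. The median difference was -0.04, and 0.08 without CERK1_WT replicate 1, and for 17 the 95% interval lay within 2-fold. The endoplasmic reticulum chaperones BIP1 and BIP2 differed by 0.05 and 0.03, and the constitutive HSP90.2 and HSP90.3 by -0.04 and -0.13. Of 13 HSP70 partners and co-chaperones 0 were called, with ROF2, a heat-induced immunophilin, lowest at -0.53 (SE 0.16, unadjusted p = 0.0106). Small heat shock proteins and heat shock factors had 0 of 18 called and a median of -0.13, with 15 of 18 below 0. That median was 0.04 without CERK1_WT replicate 1.

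**Figure D2:**
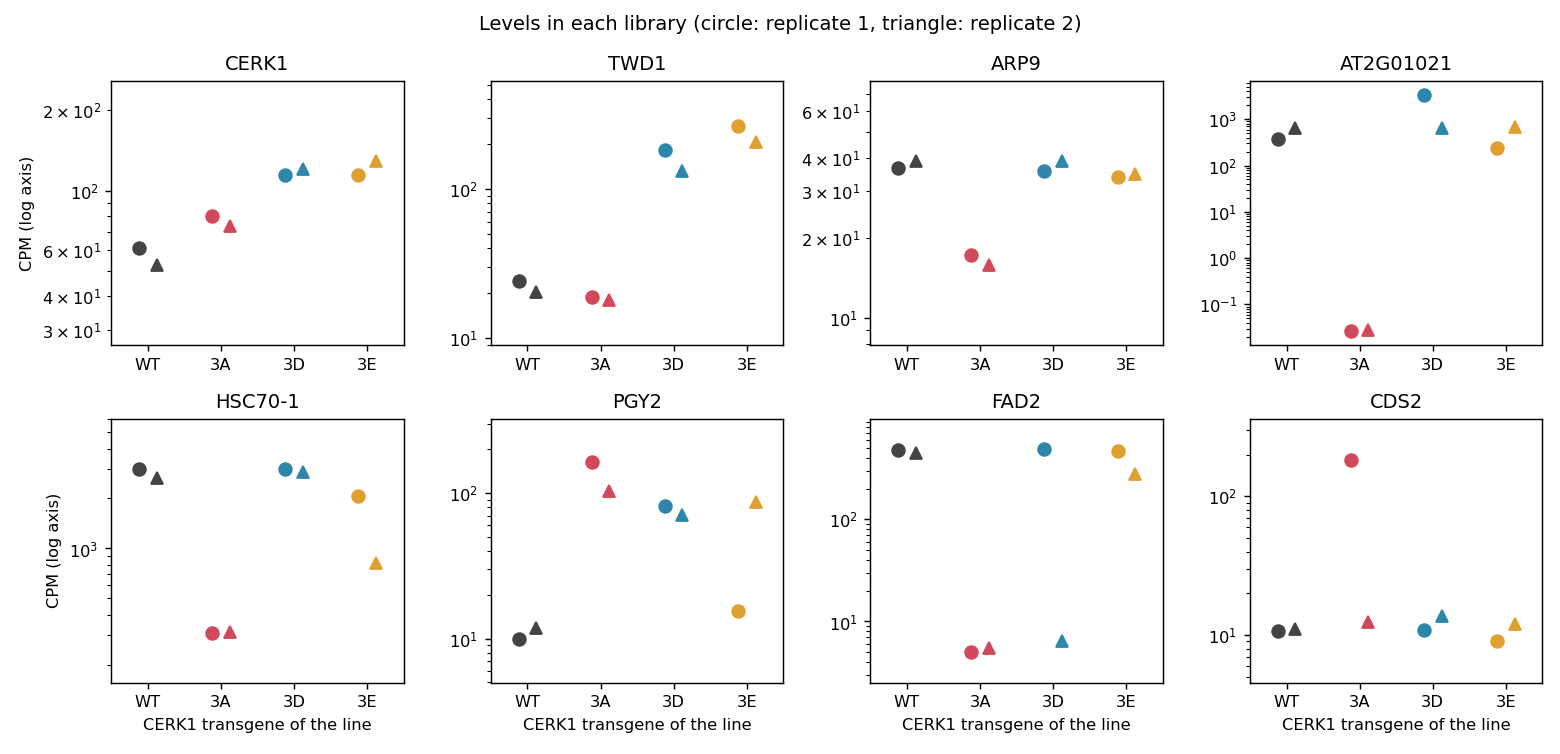
Levels in each library in CPM on log axes whose ranges differ between panels; circles are replicate 1 and triangles replicate 2 of the lines CERK1_WT, CERK1_3A, CERK1_3D and CERK1_3E. ARP9, AT2G01021 and HSC70-1 were lower in both CERK1_3A libraries than in any other library, CERK1 lay between CERK1_WT and the other lines, and CDS2 was high in 1 CERK1_3A library.

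Beyond the calls, the 12 genes with the smallest p in each direction among genes of at least 5 CPM whose lines did not overlap were read across the table; apart from AT2G01021 and ARP9 they were not called by edgeR's test, and CERK1 itself was among the upward ones. DESeq2 called 7 more of them: AT5G46190 (adjusted p = 9.65e-12), HSC70-1 (2.61e-09), MLP28 (3.75e-07), AT2G19385 (0.000777), SAG29 (0.00269), CRS1 (0.0204) and PGY2 (0.023). The highest-ranked upward gene was AT5G46190, which encodes an RNA-binding protein with KH domains. It was at 4.18 and 6.30 CPM in CERK1_WT and at 17.3 and 19.6 CPM in CERK1_3A (log2 1.82, SE 0.22, adjusted p = 0.167, and 0.0231 with the replicate number as a block). CERK1_3D at 14.5 and 16.3 CPM and CERK1_3E at 14.5 and 18.9 CPM were as high, and CERK1_3A did not differ detectably from their mean (log2 0.20, 95% interval -0.20 to 0.61). Here it was CERK1_WT, not CERK1_3A, that stood outside the other libraries. Its neighbours on both sides, DELTA-OAT and CUL4 among them, were not called.

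AT2G19385, annotated as a zinc ion binding protein, showed the other pattern. It was at 11.5 and 10.1 CPM in CERK1_WT and at 21.0 and 18.9 CPM in CERK1_3A (log2 0.89, SE 0.12, adjusted p = 0.32). In CERK1_3D and CERK1_3E it lay between 10.0 and 11.8 CPM, so only the CERK1_3A libraries were high. The difference from the mean of those lines was 0.88 (SE 0.10, adjusted p = 0.101).

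PGY2, a ribosomal protein of the L6 family, was at 9.92 and 11.8 CPM in CERK1_WT and at 162 and 103 CPM in CERK1_3A. Its adjacent family member AT1G33120 was at 482 and 447 CPM in CERK1_WT and at 255 and 392 CPM in CERK1_3A. The sum of both genes was 491 and 459 CPM against 417 and 495 CPM, which overlap. In CERK1_3D, PGY2 was at 81.2 and 71.2 CPM and the sum at 376 and 322 CPM. PGY2 (log2 3.61, SE 0.69, adjusted p = 1) differed 5.61-fold between the 2 libraries of CERK1_3E. It was called with the 4 compared libraries alone (adjusted p = 0.00911) and without replicate 1 (0.00755) or replicate 2 (0.00736) of CERK1_3E. How reads shared by these similar genes were counted is not known, so their separate values are uncertain. The 2 genes of ribosomal protein L41 among the 12, AT3G11120 and AT3G56020, both differed by 0.46 (SE 0.10 and 0.12).

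The other upward genes each differed by less than 2-fold. NAS2, a nicotianamine synthase that makes a chelator of iron and other metals, was at 3.83 and 3.41 CPM in CERK1_WT and at 6.63 and 7.32 CPM in CERK1_3A (log2 0.94, SE 0.23). AT1G21140, a vacuolar iron transporter-like gene, was at 3.66 and 4.98 CPM against 8.80 and 7.62 CPM (log2 0.93, SE 0.23). GRP-3, a glycine-rich protein that binds the wall-associated kinase WAK1, was at 144 and 139 CPM against 221 and 170 CPM (log2 0.47, SE 0.12). AT5G62350, of the invertase and pectin methylesterase inhibitor family, the cytochrome P450 gene CYP77B1 and AT2G14880, with a SWIB/MDM2 domain, differed by 0.29, 0.59 and 0.42. None of these 6 genes was called, each with an adjusted p of 1.

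Among the downward genes, MLP28, of the major latex protein family, was at 219 and 241 CPM in CERK1_WT and at 142 and 113 CPM in CERK1_3A (log2 -0.85, SE 0.12, adjusted p = 0.32). CERK1_3D and CERK1_3E lay between 104 and 122 CPM, so CERK1_WT was the high line, as with AT5G46190 in the opposite direction. CRS1, the Arabidopsis counterpart of a chloroplast splicing factor known from maize, was at 25.1 and 21.7 CPM against 14.3 and 14.4 CPM (log2 -0.71, SE 0.12, adjusted p = 0.863). The other lines held 16.7 to 18.9 CPM of it, between the compared lines.

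SAG29, the sugar transporter SWEET15, was at 44.9 and 49.8 CPM in CERK1_WT and at 26.8 and 31.2 CPM in CERK1_3A (log2 -0.71, SE 0.12, adjusted p = 0.863). CERK1_3E was equally low at 29.1 and 24.5 CPM and CERK1_3D equally high at 46.8 and 46.7 CPM. QQS, an orphan gene known for its effect on starch content, was at 9.66 and 9.79 CPM against 6.26 and 4.53 CPM (log2 -0.85, SE 0.18), and at 17.1 and 18.1 CPM in CERK1_3E. AT2G28940, a protein kinase gene, was at 8.29 and 8.81 CPM against 5.18 and 5.03 CPM (log2 -0.74, SE 0.16). PUR ALPHA-1, a nucleic acid-binding protein, AT5G02230, a hydrolase, and cPT4, a prenyltransferase, differed by -0.39, -0.44 and -0.40. The unannotated locus newGene_80 was at 475 and 388 CPM against 129 and 211 CPM, and ranged from 47.0 to 1081 CPM over the other lines.

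The CERK1_3A libraries lay outside all other libraries for 9 of the 12 upward and 7 of the 12 downward genes. The CERK1_WT libraries did so for 4 and 3 of them. Among all 4782 genes of at least 5 CPM whose compared lines did not overlap, CERK1_3A lay outside in 24.1% and CERK1_WT in 13.4%. The 24 genes were ranked by a test that used these libraries, so no test of those shares is given.

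**Figure D3:**
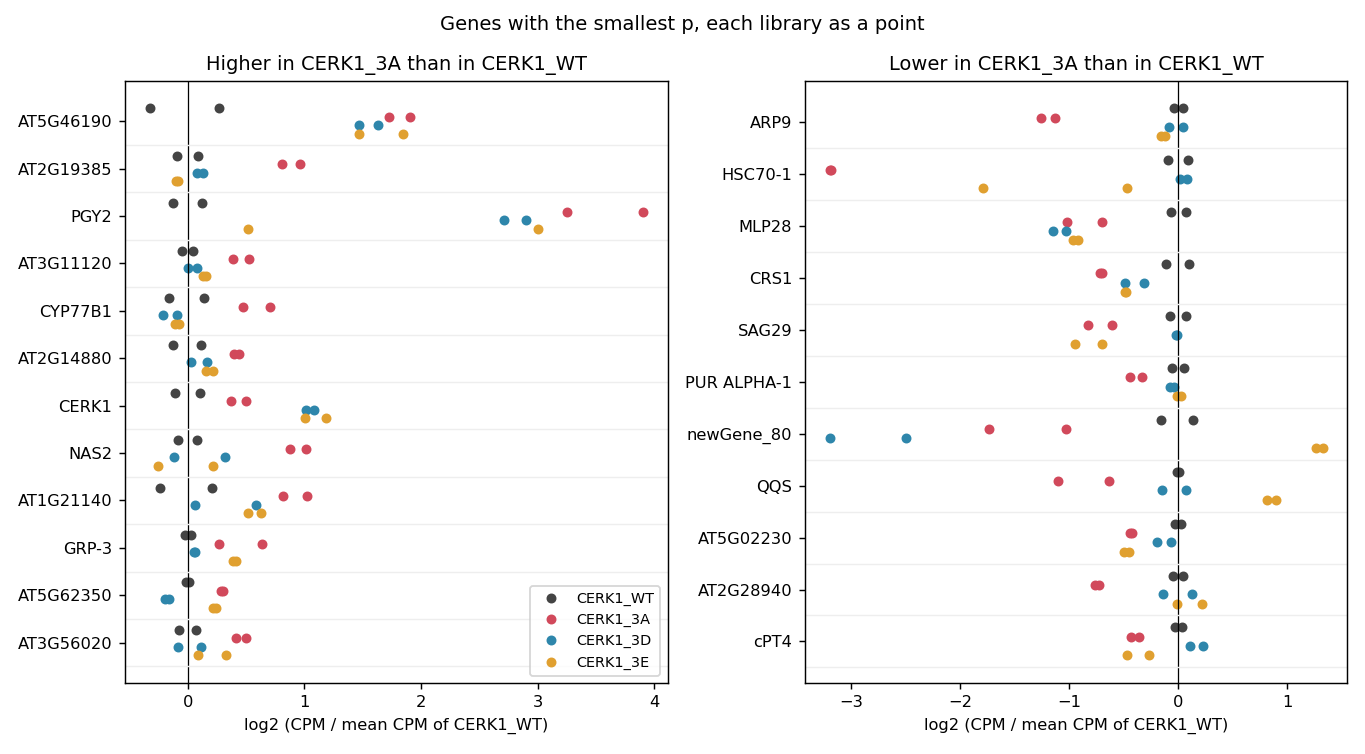
Level of each gene in each library relative to the CERK1_WT mean, on the log2 scale, for the genes with the smallest p in either direction (AT2G01021 is beyond the axis and left out). Red points of CERK1_3A stand alone for ARP9, HSC70-1 and AT2G19385, whereas for AT5G46190 and MLP28 all 3 other lines lie together away from CERK1_WT.

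A different kind of gene was read after its values were seen: those that differed 4-fold or more with lines that did not overlap. There were 13 such genes among the 15206 of at least 5 CPM, 7 higher and 6 lower in CERK1_3A. Of the 13, 6 (46.2%) were also 4-fold or more apart between the replicates of CERK1_3D or CERK1_3E, against 80 (0.526%) of the 15206. FAD2, the main desaturase that makes linoleate outside the plastid, was at 476 and 444 CPM in CERK1_WT and at 5.02 and 5.55 CPM in CERK1_3A. In CERK1_3D the same gene was at 484 CPM in replicate 1 and at 6.38 CPM in replicate 2, and in CERK1_3E at 472 and 276 CPM. FAD2 was thus as low in 1 library of CERK1_3D as in CERK1_3A, and its difference of -6.44 (SE 1.60) was not called by edgeR's test over 8 libraries (adjusted p = 1). It was called by DESeq2, with the 4 compared libraries alone and without either CERK1_3D library. The genes beside it, ACT11 at 49.7 and 46.2 CPM against 45.2 and 44.6 CPM and AT3G12130 at 26.4 and 26.8 CPM against 30.2 and 27.6 CPM, showed no such difference.

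Differences of this size also occurred between the replicates of CERK1_3A. CDS2, which makes the phospholipid precursor CDP-diacylglycerol, was at 182 CPM in replicate 1 and at 12.4 CPM in replicate 2 of CERK1_3A, against 10.7 and 11.0 CPM in CERK1_WT. AT2G37150, a RING/U-box gene, was at 9.61 CPM in replicate 1 and at 190 CPM in replicate 2, against 9.43 and 9.36 CPM. Each was near its CERK1_WT level in the other replicate. The remaining genes included AT5G67630, a nucleoside triphosphatase gene, higher in CERK1_3A, and AT2G39725, AT3G41762 and AT2G14870, lower in CERK1_3A. None of these was called, and each varied within a compared line. In CERK1_3A, AT5G67630 was at 3.43 and 26.8 CPM and AT2G14870 at 5.94 and 0 CPM. In CERK1_WT, AT2G39725 was at 26.4 and 6.30 CPM and AT3G41762 at 7.87 and 30.7 CPM. The defence genes PDF1.2, a defensin, PCC1 and ELI3-2 were among the 13 as well and higher, at 13.5 and 4.47, 27.7 and 8.53, and 16.9 and 1.02 CPM in CERK1_3A. Each varied by more than 2-fold within that line and within CERK1_WT. Such levels were not particular to CERK1_3A. In CERK1_3D the 3 genes were at 5.125 and 18.99, 1.905 and 24.96, and 18.73 and 5.559 CPM. In CERK1_3E they were at 5.872 and 11.25, 18.78 and 29.1, and 0.1328 and 0.5732 CPM.

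Genes of pattern recognition and of the early response to it gave no call. As 0.0094% of all genes tested were called, 0 calls in a group read here is not particular to it. Over all 25 gene groups read here, the median kept its sign without each compared library in turn for 10 and changed sign for 15. Of all 21274 genes tested, 10739 lay above 0 and 10533 below. Members of a group were read in the same libraries and may vary together, so their signs are not independent. Of 34 genes of pattern receptors and their signalling, such as FLS2, BAK1 and BIK1, 0 were called, the median difference was -0.01, and for 33 the 95% interval lay within 2-fold. Of 22 immediate early immunity genes 0 were called (median 0.17, and 0.015 without CERK1_3A replicate 1). The 95% interval lay within 2-fold for only 5 of the 22, so a 2-fold difference was not excluded for the others. Some members, such as ERF104, ERF105 and SZF1, were higher in replicate 2 of every line, which the main fit counts as spread. FRK1, a receptor kinase gene used as a marker of early immune responses, was at 1.96 and 0.541 CPM in CERK1_WT and at 1.90 and 4.17 CPM in CERK1_3A, which overlap (log2 1.25, SE 0.56, unadjusted p = 0.0556). Of 16 WRKY factors 0 were called (median 0.13, and -0.02 without CERK1_3A replicate 1), with WRKY38 highest at 0.331 and 0.622 CPM against 2.51 and 1.02 CPM (unadjusted p = 0.0108). The interval lay within 2-fold for 7 of these 16.

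Salicylic acid genes had 0 of 25 called and a median of 0.19, with 18 of 25 above 0. NIMIN1, a regulator that binds NPR1, was at 0.0945 and 0.162 CPM in CERK1_WT and at 0.687 and 0.994 CPM in CERK1_3A (unadjusted p = 0.00703). PR1, the classic marker of the pathway, was at 16.1 and 7.44 CPM against 21.3 and 20.9 CPM (unadjusted p = 0.0279), and CERK1_3E held 34.9 and 48.8 CPM. LURP1, a gene required for defence against an oomycete, was at 20.3 and 26.0 CPM against 47.9 and 31.9 CPM (unadjusted p = 0.0253). These 3 were the members under an unadjusted p of 0.05, where 1.54% of all genes were higher. The median without CERK1_3A replicate 1 was 0.02, and without CERK1_WT replicate 2 it was 0.01.

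Jasmonate and ethylene output had 0 of 26 called and a median of 0.14, with 21 of 26 above 0 and 5 higher at an unadjusted p under 0.05, where 1.54% of all genes were higher. PR4, a chitin-binding defence protein, was at 128 and 112 CPM in CERK1_WT and at 190 and 147 CPM in CERK1_3A (log2 0.49, SE 0.14, unadjusted p = 0.00655). ERF1, a transcription factor of the ethylene branch, was at 0.118 and 0.0811 CPM against 0.449 and 0.470 CPM. AOC2, an enzyme of jasmonate synthesis, was at 26.4 and 30.6 CPM against 44.4 and 33.8 CPM. AOC2 was as high in CERK1_3D (35.0 and 46.8 CPM) and CERK1_3E (36.1 and 43.8 CPM), so CERK1_WT was the low line. PR4 was at 137.7 and 120.5 CPM in CERK1_3D and at 158.6 and 157.1 CPM in CERK1_3E. ERF1 lay at 0.0826 to 0.215 CPM in those lines, below CERK1_3A. The direction of the group rested on 1 library: without CERK1_3A replicate 1 the median was -0.06 and 10 of 26 members were above 0. Indolic compounds and camalexin had 0 of 18 called (median 0.14, and -0.04 without CERK1_WT replicate 2), and aliphatic glucosinolates 0 of 15 (median 0.04).

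Most abscisic acid and cold genes lay below 0. Of 18 tested 0 were called. Below 0 lay 16, against 10533 of 21274 over all genes tested. The median was -0.23, and 4 were lower at an unadjusted p under 0.05, where 1.52% of all genes were lower. RD29A, a gene induced by drought and cold, was at 42.0 and 41.8 CPM in CERK1_WT and at 33.8 and 32.9 CPM in CERK1_3A (log2 -0.33, SE 0.10, unadjusted p = 0.00993). NCED3, the drought-induced enzyme of abscisic acid synthesis, was at 10.6 and 9.36 CPM against 6.84 and 6.35 CPM (log2 -0.59, SE 0.18, unadjusted p = 0.0109). RD26, a NAC transcription factor, was at 14.7 and 15.8 CPM against 11.3 and 12.7 CPM (log2 -0.35, SE 0.12, unadjusted p = 0.0181). The median stayed below 0 without each compared library in turn, at -0.33 to -0.11. CERK1_3E at 33.4 and 29.7 CPM of RD29A and at 7.01 and 5.92 CPM of NCED3 was as low as CERK1_3A, but at 15.4 and 14.6 CPM of RD26 it lay near CERK1_WT.

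Flavonoid and anthocyanin genes had 0 of 17 called and a median of -0.18, with 15 of 17 below 0. The regulator PAP1 was at 4.40 and 4.33 CPM in CERK1_WT and at 2.11 and 3.18 CPM in CERK1_3A (log2 -0.72, SE 0.37, unadjusted p = 0.0852). The median without single libraries ranged from -0.30 to -0.06. Iron deficiency genes had 0 of 17 called (median -0.15, and 0.008 without CERK1_WT replicate 2). There NAS2 stood higher while OPT3, a phloem iron transporter, at 222 and 194 CPM against 165 and 175 CPM, and BHLH39, a regulator of iron uptake, at 6.19 and 6.63 CPM against 4.81 and 4.47 CPM, stood lower (unadjusted p = 0.0165 and 0.0408).

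Other gene groups gave no call either, where 0.0094% of all genes tested were called. The circadian clock had 0 of 17 (median 0.00), phosphate starvation 0 of 14 (median -0.09, and 0.06 without CERK1_3A replicate 1), auxin 0 of 21 (median 0.08) and the cell cycle 0 of 16 (median 0.08). Nuclear photosynthesis genes had 0 of 20 called and a median of 0.09 with 19 of 20 above 0, and the median was -0.04 without CERK1_WT replicate 1. Root markers had 0 of 18 called and a median of -0.25 with 13 of 18 below 0, and shoot and stomatal lineage markers 0 of 10 and a median of 0.09. Seed markers had 0 of 2 and floral markers 0 of 4 called. In whole seedlings, fewer cells of a type and less RNA per cell cannot be told apart. The summed root markers were at 2923 and 2630 CPM in CERK1_WT and at 2537 and 2537 CPM in CERK1_3A, and the part of this difference in the lower stress and flavonoid genes was not tested.

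**Figure D4:**
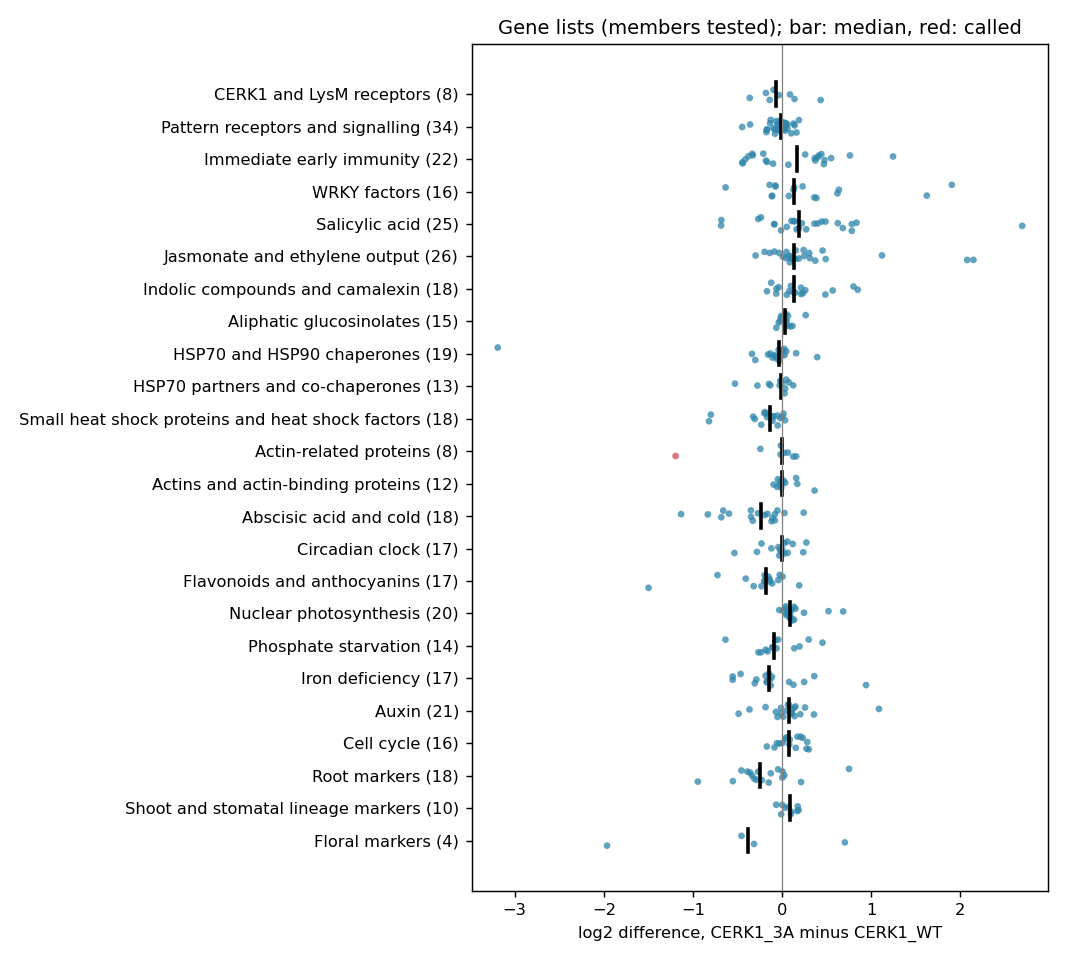
Log2 difference of CERK1_3A minus CERK1_WT for each tested member of the gene groups with at least 3 tested members (number in parentheses), with the group median as a black bar and the called gene in red. Medians of the groups with at least 8 members lay between -0.25 and 0.19. ARP9 was the 1 member called, in groups chosen with earlier results of these data known.

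Against the lines with the other mutated forms, CERK1_3A gave 4 calls relative to the mean of CERK1_3D and CERK1_3E, 0.0188% of the genes tested. At an unadjusted p under 0.05 there were 884 genes (4.16%). That share, too, was under the 0.05 that would pass with no difference in any gene. TWD1, AT2G01021 and ARP9 were among the 4 calls, and the TWD1 call came with higher levels in both other lines. AT2G01021 and ARP9 were called against CERK1_WT as well. The comparisons share the CERK1_3A libraries and are not independent.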

How the data were processed

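Counts of reads or fragments per gene were used as deposited: whole numbers that the authors had not normalized, per the file headers and values. The genome build was TAIR10, per the submitters' processing notes. Which aligner, counter, strand setting and filters were used is not given in the sources used here. Gene names and gene order came from a TAIR10.1 annotation, and no coordinates are given. All 8 libraries of the 4 lines entered edgeR 4.0.16 (R 4.3.3) with TMM factors, a coefficient per line and the filterByExpr filter, which kept 21274 of 27612 entries. The quasi-likelihood fit used the newer setting (legacy off); tests were two-sided with Benjamini-Hochberg adjustment over all tested genes and a threshold of 0.05. Other scalings moved the median over all genes by under 0.01. The script was tested on simulated data. Errors of log2 differences are SE; intervals are 95%, and counting intervals leave out all but counting error, as reads here carry no molecular identifiers. CPM values are counts divided by TMM-scaled totals.

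No pair of libraries agreed within sampling noise. Replicate numbers were checked for pairing: replicate differences of the compared lines correlated across genes at 0.149, and those of all pairs of lines at -0.031 to 0.149. Not every pair of lines was correlated and the labels name no shared batch, so the main fit has no block. Some genes did differ between replicates alike in every line. Of 15206 genes with a mean of at least 5 CPM, 17 were at least 2-fold higher in replicate 2 of all 4 lines. In the other direction there was 1. The main fit counts such a shift as spread, and a shared effect on other genes is not excluded. The genes and the 25 gene lists (425 entries, 408 tested) were chosen with earlier results of these data known. Named genes are all called, the 12 per direction with the smallest p among genes of at least 5 CPM whose lines did not overlap, CERK1, flanking genes, and up to 3 members of each list. Alternatives were DESeq2 1.42.0, other scalings and filters, the older fit, the compared libraries alone, a replicate block and leaving out each library. The 4 libraries of the flg22 experiment rest on other gene models and entered no test. A result for 1 called gene is not reported here.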

Additional observations from a re-analysis of the deposited data

How the results depend on the processing

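The count of genes called between CERK1_3A and CERK1_WT moved with the tool, the older fit and the libraries used. It was 2 in the analysis reported, 2 with library totals, with DESeq2's size factors in edgeR, without the filter, with a mean of at least 5 CPM and without organelle genes. It was 14 with DESeq2, 1 with the older quasi-likelihood fit and 5 with the 4 compared libraries alone. Leaving out 1 library at a time gave 3 to 14. The largest counts came without CERK1_3A replicate 2 (14) and CERK1_WT replicate 1 (11), then without CERK1_WT replicate 2 (8). It was 4 without CERK1_3A replicate 1 or either CERK1_3E library. Against the mean of CERK1_3D and CERK1_3E the count was 4, with DESeq2 41, and from 5 to 17 without 1 library. The number of list members called was 1, 2 with DESeq2 or the compared libraries alone, and 0 to 2 without 1 library.

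With the replicate block the count was 3 and AT5G46190 was called (adjusted p = 0.0231); as the labels do not say what a number stands for and the correlations between lines ran from -0.031 to 0.149, the block was kept as an alternative. A few genes did differ between replicates alike in every line. With the block 815 genes were at an unadjusted p under 0.05, against 651 without it.

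Of the named results, 6 uncalled differences changed sign, which in the main fit ran from -0.34 (HSP90.1) to 0.62 (WRKY54) on the log2 scale. AT3G21610 (-0.188 to 0.035) and RBCS1A (-0.014 to 0.912) did so without CERK1_3A replicate 2. WRKY54 (-0.049 to 1.202) and PCL1 (-0.674 to 0.030) did so without CERK1_3A replicate 1. HSP90.1 (-0.642 to 0.047) and ADF1 (-0.078 to 0.440) did so without CERK1_WT replicate 1. The ranges are over the libraries left out. The cause was not tested. With 2 libraries a line, leaving 1 out assumes that the lone sample varies like the other lines.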

Other observations

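A group of genes differed between replicates in the same direction in every line. Of 15206 genes with a mean of at least 5 CPM, 17 were at least 2-fold higher in replicate 2 than in replicate 1 of all 4 lines, and 1 was at least 2-fold lower. BT5, a BTB and TAZ domain gene, was at 15.1 and 71.6 CPM in CERK1_WT and at 16.9 and 53.6 CPM in CERK1_3A. In CERK1_3D it was at 17.9 and 93.4 CPM and in CERK1_3E at 37.1 and 91.9 CPM. The transcription factor RAV1 was at 8.25 and 25.9 CPM in CERK1_WT and at 9.48 and 19.9 CPM in CERK1_3A. HSPRO2, BT2, MYB77, ERF104 and CAF1a were among the others. These genes were chosen by their values, and no test is given. The labels do not say what a replicate number stands for.

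Values of genes named for CERK1_3A were also read in the flg22 experiment, which has 1 library per combination, other gene models and so no common scale and no test. AT2G28940 was at 7.76 CPM in mock-treated wild type and at 28.6 CPM after flg22, and at 7.69 and 35.2 CPM in the cerk1 mutant. QQS was at 1.81 and 0.351 CPM in wild type and at 9.80 and 9.46 CPM in cerk1. HSC70-1 lay between 1538 and 2195 CPM in all 4 of those libraries.

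APD3 was at 478 CPM in CERK1_WT replicate 2 and at 0 to 0.442 CPM in each other library. RCK, a meiotic helicase gene, was at 32.8 and 4.11 CPM in CERK1_WT, at 2482 and 2.27 CPM in CERK1_3A, at 7.35 and 1782 CPM in CERK1_3D and at 379 and 0.928 CPM in CERK1_3E. Both were picked after their values were seen.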
